A study of Rattus norvegicus with 6 samples.

Results

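The transcripts described here come from 42 genes of DNA replication and nucleotide supply, taken by symbol from a table of 19616 genes measured in whole rat liver. The 42 genes cover origin recognition and helicase loading (5 genes), the MCM proteins (8), helicase activation (6), the replicative polymerases and primase (6), the sliding clamp, its loader and a single-strand binding protein (6), the joining of Okazaki fragments (2), chromatin and methylation maintenance behind the fork (3), the supply of deoxynucleotides (5), and the transcription factor E2f1. All 42 were found in the table once each, and 41 of them passed the minimum mean of 0.1 FPKM for a test. FPKM is the number of fragments mapped to a gene, scaled to transcript length and to the depth of the library, so levels can be compared between genes on a common scale.

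Before a cell divides, its origins of replication are bound by the origin recognition complex, which recruits Cdc6 and Cdt1 to load the MCM helicase onto DNA. At the onset of S phase, kinases convert the loaded helicase into an active one with Cdc45 and the GINS complex, and primase, polymerases, clamp and clamp loader then copy both strands while ribonucleotide reductase and thymidylate enzymes supply the building blocks. The hepatocytes of an adult liver are mostly quiescent, and many genes of this pathway are known targets of the E2F transcription factors in cells that enter the cycle.

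The FL group sequenced consisted of 3 male SD rats (FL2, FL5 and FL12) from a larger group that was given CCl4, a solvent toxic to hepatocytes, mixed with olive oil by intraperitoneal injection at 2 mL/kg body weight, 2 injections a week for 5 weeks. The CL group sequenced consisted of 3 male SD rats (CL5, CL6 and CL7) from a larger group that received olive oil alone in the same volume, and the ages of the rats are not given in the sources used here. Ribosomal RNA was removed from total liver RNA, and 1 library per rat was sequenced, so hepatocytes, stellate cells, immune cells, bile duct cells and vessels all contributed to each value. The question was which replication transcripts differed between fibrotic and control liver, and how alike the rats of a group were.

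Where 3 values are given for a group, they stand in the order CL5, CL6, CL7 or FL2, FL5, FL12. The label of the tissue was checked against defining markers. Albumin (Alb), the main hepatocyte product, was at 33392, 31431 and 31992 FPKM in the CL rats and at 24149, 25052 and 25209 FPKM in the FL rats. Type I collagen (Col1a1), a product of activated stellate cells and myofibroblasts, was at 2.12, 3.77 and 2.12 FPKM in the CL rats and at 17.00, 101.22 and 73.73 FPKM in the FL rats. All 6 samples thus held abundant hepatocyte RNA, and each FL rat lay above each CL rat in collagen, with FL2 the lowest of the FL rats. Total numbers of reads were not analysed here. The lowest non-zero FPKM values of 114 U6 genes gave relative depths of 1, 0.656 and 0.84 for CL5, CL6 and CL7 and of 0.667, 0.724 and 0.677 for FL2, FL5 and FL12. Depth read in this way did not separate the groups. The summed FPKM of all genes were 309425, 340467 and 315259 in the CL rats and 309226, 272350 and 272110 in FL2, FL5 and FL12.

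FL2 stood apart from FL5 and FL12 in these genes. The 42 transcripts summed to 42.4, 46.6 and 38.2 FPKM in the CL rats, to 48.5 FPKM in FL2, and to 93.1 and 97.8 FPKM in FL5 and FL12. FL2 was close to the highest CL rat, while FL5 and FL12 were far above it. The mean over the 42 genes of log2(FPKM + 0.1) was -0.59, -0.45 and -0.67 in the CL rats and -0.31, 0.40 and 0.66 in FL2, FL5 and FL12, so each FL rat lay above each CL rat on this measure. The same separation held over all genes tested, whose means were 1.25, 1.32 and 1.22 in the CL rats and 1.51, 1.71 and 1.69 in FL2, FL5 and FL12. Among the FL rats, FL2 had the lowest value in 37 of the 42 genes (88.1%), against 51.2% of all genes tested. FL12 had the highest value in 29 (69%), against 41.1% of all genes tested. In 21 of the 42 genes (50%) FL2 did not exceed the highest CL rat, and that share was close to the 50.8% of all genes tested. Genes that were called only without FL2 are named below beside the calls with all rats.

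Of the 41 members tested, 8 were higher in the FL group by limma with Benjamini-Hochberg adjustment over 14864 genes (a fold change of 2 or more and an adjusted p under 0.05, on the scale of log2(FPKM + 0.1), which understates the change of low genes), where 9.29% of all genes tested passed. These were Mcm2, Mcm3, Mcm5, Mcm6, Cdt1, Gmnn, Tyms and Uhrf1. By the same limma test 0 members were lower, where 0.935% of all genes were. At an unadjusted p under 0.05, 16 members passed, all of them higher, where 31.5% of all genes tested were higher at this limit. With no limit on the fold change, Pcna joined the 8, so that 9 members had an adjusted p under 0.05 and a higher value in the FL group, against 16.9% of all genes. Every FL rat lay above every CL rat in 18 members (35.7% of all genes tested), and below every CL rat in 0 members (4.78% of all genes tested).

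The whole table leaned upward in the FL group. The median log2 fold change of all genes tested was 0.29, and it was 0.08 after median scaling and -0.04 after quantile normalization. The median of the members was 0.73, and it was 0.53 after median scaling and 0.15 after quantile normalization. Of the 41 members, 35 (85.4%) exceeded the median of all genes. A log2 fold change of at least 1 was seen in 11 members (26.8%), against 14.4% of all genes. In the unscaled data 40 members had a positive log2 fold change and 1, Rpa2, a negative one, where 11575 of the 14864 genes tested were positive. After median scaling 5 members were negative (Rrm2, Prim1, Rfc3, Rfc5 and Rpa2), and after quantile normalization 12 were. After median scaling 4 of the 41 members passed both limits (Mcm2, Mcm5, Cdt1 and Gmnn), and after quantile normalization Mcm5 alone did. Of the 14864 genes tested, 826 and 453 were called higher after these scalings.

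The calls depended on single rats. Without FL2, 15 members were called higher, against 12.3% of all genes, and the 8 called with all rats were among them. The additional ones were Mcm4, Mcm10, Tk1, Gins1, Chaf1a, Chaf1b and E2f1. FL2 was the lowest FL rat in 36 of the 41 members tested, so leaving it out raised the FL mean of these by construction. The values without FL2, here and below, describe the dependence on this rat and are no separate support. Without CL7 and without FL5, 0 members had an adjusted p under 0.05 in limma, with lowest values of 0.0515 and 0.0554. In these settings 740 of 14949 and 745 of 14726 genes were called higher. An unadjusted p under 0.05 was seen in 11 and 12 members, and the share of all genes at this limit is not given here. Without CL5, CL6 and FL12, 2 of 41, 4 of 42 and 2 of 40 members tested were called higher. Of all genes tested, 935 of 14961, 1001 of 14937 and 954 of 14671 were. In bulk liver, a change in the number of cycling cells and a change in the RNA per cell cannot be told apart, and this holds for every gene below.

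**Figure D1:**
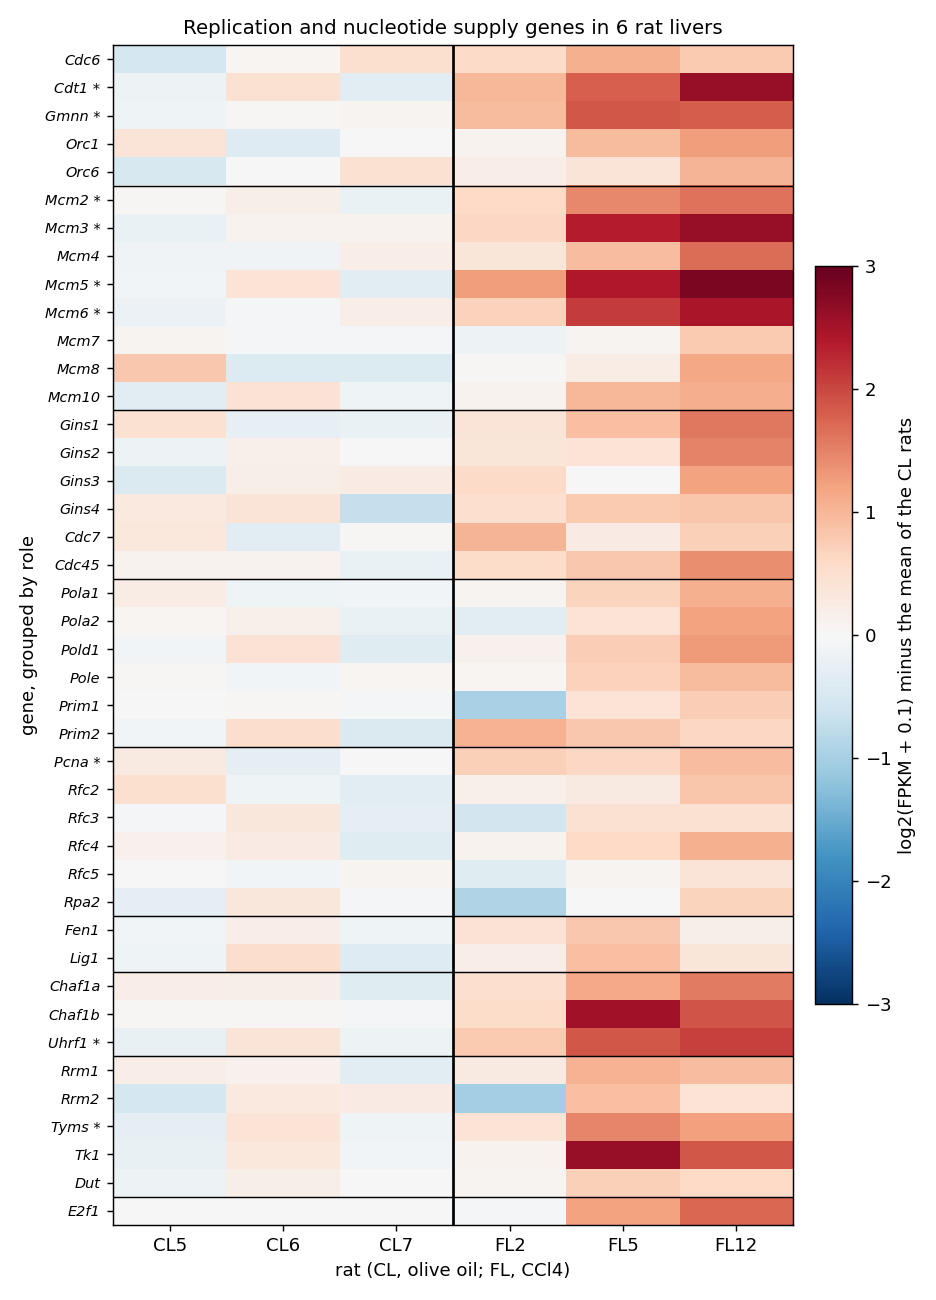
Each row is 1 of the 42 genes, grouped by role, and each column is 1 rat (CL, olive oil; FL, CCl4). Color gives log2(FPKM + 0.1) minus the mean of the 3 CL rats for that gene, and an asterisk marks the 9 genes with an adjusted p under 0.05 in limma. FL5 and FL12 are mostly red, FL2 is pale, and Prim1, Rfc3, Rpa2 and Rrm2 are blue in FL2.

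Loading of the helicase at origins depends on Cdt1, and geminin (Gmnn) binds Cdt1 and blocks it outside the permitted window. Cdt1 was at 0.17, 0.31 and 0.14 FPKM in the CL rats and at 0.50, 0.93 and 1.73 FPKM in the FL rats. The groups did not overlap, and the FL rats were spread over a wider range than the CL rats. Means were 0.207 ± 0.0907 FPKM (SD, n = 3) and 1.05 ± 0.624 FPKM (SD, n = 3), and the log2 fold change was 1.80 ± 0.44 (SE), with an adjusted p of 0.029 in limma (0.0115 to 0.103 over the alternatives). Gmnn was at 0.28, 0.32 and 0.34 FPKM in the CL rats and at 0.70, 1.41 and 1.35 FPKM in the FL rats. The CL rats lay close together, and FL2 stood about midway between them and the other FL rats. Gmnn had a log2 fold change of 1.55 ± 0.31 (SE) between means of 0.313 ± 0.0306 and 1.15 ± 0.394 FPKM (SD, n = 3), with an adjusted p of 0.0145 in limma (0.00477 to 0.0597 over the alternatives).

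The activator and its inhibitor were therefore higher in the same rats. The log2 ratio of Gmnn to Cdt1 within a rat, in which a constant factor per rat cancels apart from the pseudocount, was 0.49, 0.03 and 0.87 in CL5, CL6 and CL7 and 0.42, 0.55 and -0.34 in FL2, FL5 and FL12. The groups overlapped, with FL12 the lowest of the 6 rats. The difference between the groups was -0.26 (exact permutation test, two-sided, p = 0.6, adjusted p = 0.6 over 4 ratios, where the smallest p that 3 rats against 3 can reach is 0.1). It ranged from -0.47 without CL6 to 0.016 without FL12, so its sign rested on FL12.

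Transcripts of the remaining loading factors were scarce. Orc1, the largest subunit of the origin recognition complex, had the lowest mean of the 42 genes, with 0.07, 0.00 and 0.03 FPKM in the CL rats and 0.04, 0.15 and 0.21 FPKM in the FL rats. FL2 lay among the CL rats, and the mean over the 6 rats was under the limit for a test. Cdc6, the ATPase that helps to load the MCM ring, ranged from 0.04 to 0.18 FPKM in the CL rats and from 0.20 to 0.32 FPKM in the FL rats, without overlap but with an adjusted p of 0.194 in limma. Orc6, the smallest subunit of the same complex, overlapped between groups at 0.10 to 0.28 and 0.22 to 0.46 FPKM, and its log2 fold change of 0.53 became -0.08 after quantile normalization. The reads behind these low values were not counted here.

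The MCM2-7 ring is the replicative helicase and holds 1 copy each of 6 related subunits. Mcm5 was at 0.25, 0.39 and 0.19 FPKM in the CL rats and at 0.78, 1.86 and 2.50 FPKM in the FL rats. Every FL rat was above every CL rat, FL2 by the smallest margin. With means of 0.277 ± 0.103 and 1.71 ± 0.869 FPKM (SD, n = 3), Mcm5 had the largest log2 fold change of the 41 members tested, 2.17 ± 0.42 (SE), and an adjusted p of 0.0136 in limma (0.00392 to 0.0568 over the alternatives). Mcm3 was at 0.31, 0.41 and 0.41 FPKM in the CL rats and at 0.63, 2.31 and 2.79 FPKM in the FL rats. FL2 was much nearer to the CL rats than to FL5 and FL12. The means of Mcm3 were 0.377 ± 0.0577 and 1.91 ± 1.13 FPKM (SD, n = 3), and its log2 fold change was 1.86 ± 0.49 (SE), with an adjusted p of 0.0366 in limma (0.0022 to 0.121 over the alternatives).

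Mcm6 was at 0.37, 0.42 and 0.51 FPKM in the CL rats and at 0.76, 2.16 and 2.80 FPKM in the FL rats. As in Mcm3, the groups were separate and FL2 was the lowest FL rat. Mcm6 had means of 0.433 ± 0.0709 and 1.91 ± 1.04 FPKM (SD, n = 3) and a log2 fold change of 1.75 ± 0.43 (SE), with an adjusted p of 0.0301 in limma (0.00298 to 0.103 over the alternatives). Mcm2 was at 1.23, 1.35 and 1.02 FPKM in the CL rats and at 1.87, 3.42 and 3.87 FPKM in the FL rats. Its CL level was the second highest of the ring in each CL rat, and the groups did not overlap. The means of Mcm2 were 1.20 ± 0.167 and 3.05 ± 1.05 FPKM (SD, n = 3), for a log2 fold change of 1.22 ± 0.28 (SE) and an adjusted p of 0.0224 in limma (0.00418 to 0.0856 over the alternatives).

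The 2 other subunits of the ring did not pass. Mcm4 was at 0.71, 0.71 and 0.89 FPKM in the CL rats and at 1.02, 1.54 and 2.66 FPKM in the FL rats, again without overlap. Its log2 fold change was 0.99 ± 0.33 (SE) with an adjusted p of 0.0718 in limma, and 1.30 with an adjusted p of 0.02 without FL2 (0.02 to 0.355 over the alternatives). Mcm7 was the most abundant subunit in each of the 6 rats, at 3.66, 3.40 and 3.34 FPKM in the CL rats and 3.13, 3.65 and 6.04 FPKM in the FL rats. FL2 lay under all CL rats, FL5 among them and FL12 above them. Mcm7 had a log2 fold change of 0.24 ± 0.23 (SE) and an adjusted p of 0.493 in limma, and its sign turned after quantile normalization (-0.10) and without FL12 (-0.03).

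The subunit levels were therefore less unequal in the FL rats. The ratio of the highest to the lowest of the 6 subunits was 14.6, 8.72 and 17.6 in CL5, CL6 and CL7 and 4.97, 2.37 and 2.42 in FL2, FL5 and FL12, a ratio within a rat that a constant factor per rat does not change. Each FL rat had a smaller ratio than each CL rat, and no test was run on it. Mcm7 alone exceeded the mean of the other 5 subunits by factors of 6.38, 5.18 and 5.53 in the CL rats, and by factors of 3.09, 1.62 and 2.07 in FL2, FL5 and FL12. A level of mRNA says nothing of the protein in the ring, which was not measured here.

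**Figure D2:**
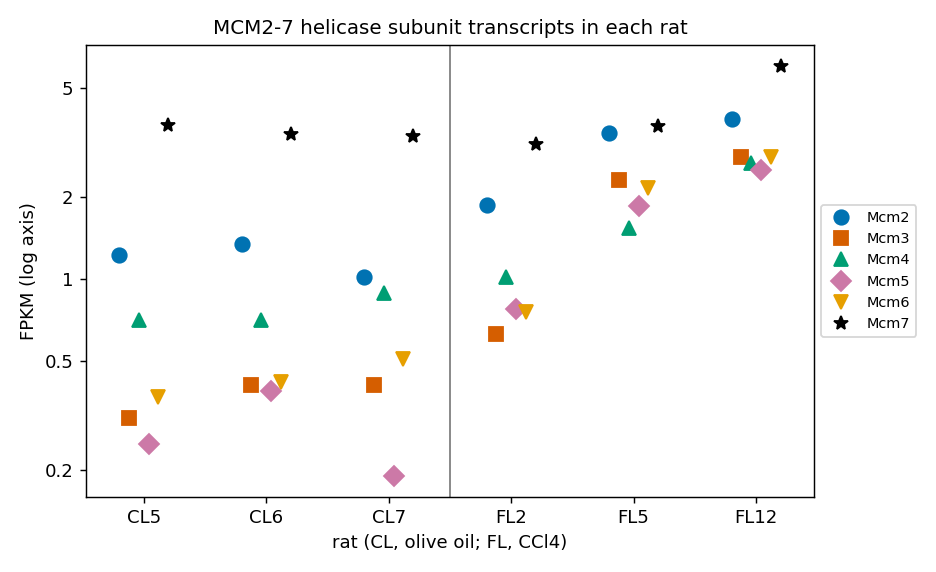
Each point is the FPKM (log axis) of 1 of the 6 MCM2-7 subunits in 1 rat, with the CL rats on the left and the FL rats on the right. Mcm7 is on top in each rat, and the distance from the highest to the lowest subunit is 8.72 to 17.6 times in the CL rats and 2.37 to 4.97 times in the FL rats.

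Outside the ring, Mcm10, which acts when the helicase is switched on, overlapped between groups, at 0.70 to 1.25 FPKM in the CL rats and 0.97 to 2.03 FPKM in the FL rats. Its adjusted p in limma was 0.149, and 0.0337 without FL2 (0.0337 to 0.634 over the alternatives). Mcm8, a paralog known from recombination repair, was at 0.07 to 0.29 and 0.13 to 0.40 FPKM, with an adjusted p of 0.536 and a log2 fold change of 0.47 that became -0.13 after quantile normalization.

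The factors that activate the loaded helicase were low and gave 0 calls in limma, with 1 of the 6, Gins1, at an unadjusted p under 0.05. Gins1, a subunit of the 4-part GINS complex, was at 0.48, 0.26 and 0.27 FPKM in the CL rats and at 0.46, 0.70 and 1.17 FPKM in the FL rats. CL5 and FL2 overlapped, and FL5 and FL12 were above all CL rats. The log2 fold change of Gins1 was 0.96 ± 0.37 (SE) with an adjusted p of 0.11 in limma, and 1.24 with an adjusted p of 0.0467 without FL2 (0.0467 to 0.54 over the alternatives). Gins4 had the highest level of the 4 GINS transcripts in each of the 6 rats, with 0.43 to 1.01 FPKM in the CL rats and 1.10 to 1.41 FPKM in the FL rats, without overlap (adjusted p = 0.151). Gins2 did not overlap either, at 0.11 to 0.16 and 0.20 to 0.55 FPKM (adjusted p = 0.228), while Gins3 overlapped at 0.07 to 0.17 and 0.13 to 0.43 FPKM (adjusted p = 0.358) and had a log2 fold change of 0.60 that became -0.02 after quantile normalization.

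Cdc45, the partner of GINS in the active helicase, ranged from 0.03 to 0.06 FPKM in the CL rats and from 0.12 to 0.29 FPKM in the FL rats, with an adjusted p of 0.162 in limma. Cdc7, the kinase that phosphorylates the MCM ring, was at 0.04 to 0.12 FPKM in the CL rats and 0.11 to 0.26 FPKM in the FL rats, and here FL2 was the highest of the 6 rats (adjusted p = 0.293). Cdc45, Cdc7 and Chaf1b had a CL mean under 0.1 FPKM and passed the minimum for a test through their FL values, so their direction was partly set by that limit.

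The polymerases and primase gave 0 calls in limma, with 1 of the 6, Prim2, at an unadjusted p under 0.05. Prim2, the large subunit of primase, was at 1.12, 1.77 and 0.86 FPKM in the CL rats and at 2.56, 2.16 and 1.89 FPKM in the FL rats. The groups did not overlap, and FL2 was the highest FL rat, unlike in most of the 42 genes. Its log2 fold change was 0.82 ± 0.27 (SE) with an adjusted p of 0.0689 in limma, and 1.08 with an adjusted p of 0.0376 without CL6 (0.0376 to 0.457 over the alternatives). Prim1, the catalytic subunit of primase, was at 3.57, 3.66 and 3.51 FPKM in the CL rats and at 1.77, 4.82 and 5.99 FPKM in the FL rats. The CL rats were nearly equal, FL2 was far under them, and FL5 and FL12 were above them. The log2 fold change of Prim1 was 0.06 ± 0.39 (SE, adjusted p = 0.932), with a sign that turned after both scalings, and 0.57 with an adjusted p of 0.0339 without FL2 (0.0339 to 0.962 over the alternatives). The 2 subunits of primase thus stood in opposite order in FL2.

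Pola1 and Pola2, subunits of the polymerase that extends the primer, ranged from 0.86 to 1.11 and from 0.37 to 0.50 FPKM in the CL rats. In the FL rats they ranged from 1.01 to 2.09 and from 0.33 to 1.15 FPKM, with adjusted p-values of 0.158 and 0.466 in limma, and the sign of Pola2 turned after quantile normalization. Pole, the catalytic subunit of the leading-strand polymerase, was at 0.75 to 0.83 FPKM in the CL rats and at 0.83, 1.36 and 1.64 FPKM in the FL rats (adjusted p = 0.169). Pold1, the catalytic subunit of the lagging-strand polymerase, was at 0.26 to 0.53 FPKM in the CL rats and 0.41 to 1.02 FPKM in the FL rats (adjusted p = 0.203). In all 4 of these genes FL2 lay within the range of the CL rats or under it, and FL5 and FL12 were above every CL rat. Without FL2, Pole and Pola1 had adjusted p-values of 0.0298 and 0.0355 in limma (up to 0.962 and 0.828 over the alternatives), at a fold change under 2.

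Pcna, the sliding clamp that holds polymerases on DNA, was at 3.95, 2.67 and 3.22 FPKM in the CL rats and at 5.38, 5.05 and 6.23 FPKM in the FL rats. Every FL rat was above every CL rat, and here FL2 was as high as FL5. The means were 3.28 ± 0.642 and 5.55 ± 0.609 FPKM (SD, n = 3), with a log2 fold change of 0.75 ± 0.17 (SE), a fold of 1.69, and an adjusted p of 0.0236 in limma (0.0178 to 0.174 over the alternatives). Rpa2, a subunit of the protein that coats single-stranded DNA, was at 1.05, 1.68 and 1.28 FPKM in the CL rats and at 0.66, 1.31 and 2.15 FPKM in the FL rats. FL2 was the lowest and FL12 the highest of the 6 rats. Its log2 fold change was -0.08 ± 0.39 (SE, adjusted p = 0.904), the 1 negative value among the members, and it was 0.33 without FL2 and 0.09 without CL6.

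The clamp loader subunits Rfc2, Rfc3, Rfc4 and Rfc5 overlapped between groups and did not pass in limma, with adjusted p-values of 0.299, 0.812, 0.175 and 0.923. Rfc4 was at 1.06 to 1.66 FPKM in the CL rats and at 1.49, 2.17 and 3.00 FPKM in the FL rats, and FL5 and FL12 exceeded the CL rats. Rfc2 reached 2.61 FPKM in CL5, above FL2 and FL5 at 2.07 and 2.25 FPKM, while FL12 was at 3.37 FPKM. Rfc3 and Rfc5 were lower in FL2 (1.28 and 1.17 FPKM) than in any CL rat (from 1.56 and 1.43 FPKM). Their log2 fold changes of 0.12 and 0.04 became negative after both scalings.

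Fen1, the nuclease that trims the flaps of Okazaki fragments, was at 0.69 to 0.90 FPKM in the CL rats and at 1.07, 1.42 and 0.87 FPKM in the FL rats. Lig1, the ligase that seals these fragments, was at 0.26, 0.47 and 0.20 FPKM in the CL rats and at 0.35, 0.64 and 0.41 FPKM in the FL rats. In both genes FL5 was the highest rat and FL12 fell back into the CL range. Neither passed in limma (adjusted p = 0.204 and 0.363), 0 of the 2 had an unadjusted p under 0.05, and both signs turned after quantile normalization.

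Behind the fork, CAF-1 deposits new nucleosomes and Uhrf1 reads hemimethylated DNA to recruit the methyltransferase Dnmt1. Uhrf1 was at 0.13, 0.25 and 0.14 FPKM in the CL rats and at 0.36, 0.88 and 1.01 FPKM in the FL rats. The groups were separate, with FL2 nearest to the CL rats. The means of Uhrf1 were 0.173 ± 0.0666 and 0.75 ± 0.344 FPKM (SD, n = 3), and its log2 fold change was 1.57 ± 0.41 (SE), with an adjusted p of 0.0356 in limma (0.00967 to 0.118 over the alternatives). The log2 ratio of Uhrf1 to Dnmt1 was -3.53, -2.83 and -3.40 in the CL rats and -2.86, -2.03 and -2.19 in FL2, FL5 and FL12. FL2 and CL6 overlapped by a narrow margin, and the difference of 0.89 gave p = 0.2 in the two-sided exact permutation test (adjusted p = 0.4 over 4 ratios). It ranged from 0.73 without FL5 to 1.14 without FL2 and was 0.029 at a pseudocount of 1, so its size rested on the pseudocount. Dnmt1 was more abundant than Uhrf1 in each of the 6 rats.

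Chaf1b, a subunit of CAF-1, was at 0.08, 0.08 and 0.07 FPKM in the CL rats and at 0.16, 0.91 and 0.55 FPKM in the FL rats. The CL rats were nearly equal and all FL rats were above them, FL2 by little. Its log2 fold change of 1.65 ± 0.52 (SE) had an adjusted p of 0.0597 in limma, and without FL2 it was 2.20 with an adjusted p of 0.00945 (0.00945 to 0.182 over the alternatives). Chaf1a, the largest CAF-1 subunit, also did not overlap, at 0.27 to 0.45 FPKM in the CL rats and 0.58 to 1.32 FPKM in the FL rats. Its adjusted p was 0.0626 in limma and 0.0229 without FL2 (0.0229 to 0.325 over the alternatives).

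Among the enzymes of nucleotide supply, thymidylate synthase (Tyms), which makes dTMP from dUMP, was at 2.50, 4.08 and 2.80 FPKM in the CL rats and at 4.12, 8.60 and 7.37 FPKM in the FL rats. FL2 was barely above CL6, so the groups were separate by a narrow margin. The means of Tyms were 3.13 ± 0.839 and 6.70 ± 2.31 FPKM (SD, n = 3), with a log2 fold change of 1.04 ± 0.29 (SE) and an adjusted p of 0.044 in limma (0.00978 to 0.138 over the alternatives). Thymidine kinase 1 (Tk1), the salvage enzyme of the cytosol, had the highest mean of the 42 genes, at 2.74, 3.97 and 2.99 FPKM in the CL rats and 3.44, 20.02 and 11.87 FPKM in the FL rats. FL2 lay among the CL rats, whereas FL5 and FL12 were far above them. The log2 fold change of Tk1 was 1.53 ± 0.55 (SE) with an adjusted p of 0.0896 in limma, and 2.24 with an adjusted p of 0.0038 without FL2 (0.0038 to 0.227 over the alternatives). The mitochondrial kinase Tk2 was at 2.87, 2.56 and 1.59 FPKM in the CL rats and 2.31, 2.51 and 2.97 FPKM in the FL rats, which overlapped. The log2 ratio of Tk1 to Tk2 was -0.06, 0.61 and 0.87 in the CL rats and 0.56, 2.95 and 1.96 in FL2, FL5 and FL12, a difference of 1.35 (exact permutation test, two-sided, p = 0.3, adjusted p = 0.4 over 4 ratios). It ranged from 0.79 without FL5 to 1.98 without FL2.

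Ribonucleotide reductase makes deoxynucleotides and needs a large subunit (Rrm1) and a small one (Rrm2). Rrm1 was at 3.45, 3.32 and 2.36 FPKM in the CL rats and at 3.63, 6.32 and 5.75 FPKM in the FL rats. The groups were separate by a narrow margin, and the adjusted p was 0.0666 in limma, or 0.0167 without FL2 at a fold change under 2 (0.0167 to 0.256 over the alternatives). Rrm2 was at 0.04, 0.15 and 0.14 FPKM in the CL rats and at 0.00, 0.28 and 0.17 FPKM in the FL rats. FL2 was listed at 0, under all CL rats, and FL5 and FL12 were above them. The log2 fold change of Rrm2 was 0.10 ± 0.59 (SE, adjusted p = 0.922), and its sign turned after both scalings. The log2 ratio of Rrm2 to Rrm1 was -4.66, -3.77 and -3.36 in the CL rats and -5.22, -4.08 and -4.44 in FL2, FL5 and FL12. The small subunit was the scarcer one in each rat, and the difference between the groups was -0.65 (exact permutation test, two-sided, p = 0.3, adjusted p = 0.4 over 4 ratios). It ranged from -1.01 without CL5 to -0.33 without FL2 and was -1.16 at a pseudocount of 0.01, so its size depended on single rats and on the pseudocount. Dut, which removes dUTP, was at 1.93 to 2.46 FPKM in the CL rats and at 2.31, 3.59 and 3.34 FPKM in the FL rats, with an adjusted p of 0.142 in limma and of 0.0329 without FL2 at a fold change under 2 (0.0329 to 0.807 over the alternatives).

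E2f1, an activating member of the E2F family, was at 0.16 FPKM in each of the 3 CL rats and at 0.15, 0.50 and 0.76 FPKM in the FL rats. FL2 was at the CL level, and FL5 and FL12 were above it. The log2 fold change of E2f1 was 0.96 ± 0.48 (SE) with an adjusted p of 0.189 in limma, and without FL2 it was 1.47 with an adjusted p of 0.0221 (0.0221 to 0.588 over the alternatives). Of 11 tested genes of the E2F and retinoblastoma family, 0 were called in limma and 4 had an unadjusted p under 0.05, while 2 of 12, E2f8 and Rbl1, were called without FL2, and E2f8 also at a pseudocount of 0.01. The dimerization partner Tfdp1, at 2.97, 2.55 and 2.51 FPKM in the CL rats and 4.83, 4.63 and 5.75 FPKM in the FL rats, had an adjusted p of 0.00832 (up to 0.0559 over the alternatives) at a fold change under 2. In this gene FL2 was slightly above FL5 and below FL12. The repressor E2f8 was at 0.08, 0.10 and 0.09 FPKM in the CL rats and 0.19, 0.57 and 0.73 FPKM in the FL rats (adjusted p = 0.0518, and 0.00998 without FL2, 0.00998 to 0.177 over the alternatives). Its CL mean was under the 0.1 FPKM minimum, which it passed through its FL values. The pocket protein Rbl1 and the activator E2f2 had log2 fold changes of 0.81 and 0.47 with adjusted p-values of 0.127 and 0.204 in limma, and E2f2 was at -0.14 after quantile normalization. Without FL2, Rbl1 had a log2 fold change of 1.15 and an adjusted p of 0.0254 (0.0254 to 0.533 over the alternatives). Of the 11 tested, 9 had a positive log2 fold change and 2 a negative one. Every FL rat lay above every CL rat in 4 genes of the family and below in 1, E2f5. E2f5 was at 1.87, 2.41 and 1.76 FPKM in the CL rats and at 1.74, 1.49 and 1.44 FPKM in the FL rats. Its log2 fold change was -0.34, with an adjusted p of 0.225 in limma (0.0471 to 0.508 over the alternatives).

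Other genes of the same processes were read beside the members, and the difference between the lists was not tested. Of 33 further replication genes tested, 0 were called in limma, 10 had an unadjusted p under 0.05 and the median log2 fold change was 0.35, near the 0.29 of all genes. Orc3, Pold4, Dnmt1 and Rnaseh2a had an adjusted p under 0.05 (0.0218, 0.0147, 0.0363 and 0.0474) with a fold change under 2. These values reached 0.176, 0.059, 0.256 and 0.216 over the alternatives, and Orc3, Dnmt1 and Rnaseh2a lost the limit after both scalings and without any 1 rat other than FL2. Of 16 further genes of nucleotide metabolism, 1 was called, 4 had an adjusted p under 0.05 and 8 an unadjusted p under 0.05. This was the dCMP deaminase Dctd, which feeds thymidylate synthase, at 0.53, 0.50 and 0.41 FPKM in the CL rats and 0.71, 2.11 and 1.87 FPKM in the FL rats. Its groups did not overlap, and its log2 fold change was 1.40 ± 0.38 (SE), with an adjusted p of 0.0413 in limma (0.00392 to 0.165 over the alternatives). Nme2, Mthfd1 and Impdh2 had adjusted p-values of 0.015, 0.0433 and 0.0381 at a fold change under 2, which reached 0.0508, 0.244 and 0.132 over the alternatives. The 4 largest changes among the further replication genes were those of Dtl, Asf1b, Chtf18 and Ticrr, with log2 fold changes of 1.43, 1.32, 1.26 and 1.17 and adjusted p-values of 0.111, 0.111, 0.0941 and 0.15. Without FL2, Dtl, Chtf18 and Ticrr were called, with adjusted p-values of 0.0258, 0.0213 and 0.0381 (up to 0.297, 0.33 and 0.424 over the alternatives), and Asf1b was at 0.0534. Pole2, with a log2 fold change of 1.11 and an adjusted p of 0.0703 in the main settings, was called in limma without trend (0.0272 to 0.328 over the alternatives), and its CL mean of 0.0967 FPKM was also under the minimum. Dtl, Asf1b and Ticrr had CL means of 0.05, 0.0767 and 0.0467 FPKM, as 6 of the 33 genes had CL means under 0.1 FPKM, and they passed the minimum for a test through their FL values, so their direction was partly set by that limit.

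Of 5 cyclins and regulators of S phase entry, Ccne2 was called, at 0.09, 0.07 and 0.20 FPKM in the CL rats and 0.31, 0.43 and 0.61 FPKM in the FL rats (log2 fold change 1.33 ± 0.39 SE, adjusted p = 0.0484 in limma, 0.0352 to 0.231 over the alternatives). This call was lost at both other pseudocounts, without a filter, after both scalings and without CL5, CL6, CL7, FL5 or FL12. Without FL2, 3 were called (Ccne1, Ccne2 and Ccna2). Of 17 markers of mitosis, 5 were called higher and 0 lower, and 13 had an unadjusted p under 0.05, all of them higher. Without FL2, all 17 were called higher, whereas the 5 calls were all lost after quantile normalization and without CL5, CL7, FL5 or FL12, and 2 to 5 were made in the other settings. The 5 called with all rats were Birc5, Cenpf, Mki67, Tpx2 and Kif11, with log2 fold changes of 2.35, 1.88, 1.73, 1.73 and 1.31. Their adjusted p-values in limma were 0.0187, 0.0264, 0.0478, 0.0264 and 0.04, and reached 0.0693, 0.0937, 0.144, 0.0974 and 0.163 over the alternatives. Ube2c, 1 of the 17, had a CL mean of 0.08 FPKM and passed the minimum for a test through its FL values. The 17 markers summed to 6.85, 12.7 and 7.66 FPKM in the CL rats and to 10.83, 42.04 and 36.82 FPKM in the FL rats. CL6 was above FL2 on this sum, and FL5 and FL12 were far above both. FL2 was the lowest FL rat in all 17 markers, as in most of the 42 replication genes, but FL5 was the highest in 15 of the 17, where FL12 was the highest in most replication genes.

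The markers of other cells of the liver were read beside these results. Of 8 tested markers of stellate cells or myofibroblasts, 4 were called higher (Col1a1, Col3a1, Des and Pdgfrb) with log2 fold changes of 4.24, 2.37, 2.28 and 1.69. The 9 markers of this list summed to 80.05, 86.51 and 78.61 FPKM in the CL rats and to 196.2, 533.7 and 483.2 FPKM in the FL rats, and Col3a1 was the most abundant, at 46.54, 51.80 and 48.65 and at 140.46, 341.67 and 338.60 FPKM. FL2 lay between the CL rats and the other FL rats on this sum, as in the sum of the replication genes, but FL5 was the highest in 8 of the 9 markers, where FL12 was the highest in most replication genes. Without FL2, 6 of the 8 were called, with Acta2 and Tagln added, and Timp1 was added without CL6. Col1a2 was near 0 in the table, at 0.01 to 0.18 FPKM.

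Macrophage markers had another order. Of 9 tested, 4 were called higher (Lyz2, Marco, Cd68 and Csf1r), with log2 fold changes of 3.13, 2.06, 1.69 and 1.13. The call of Csf1r was lost after both scalings and without FL5, where its fold change was under 2. C1qa and C1qb had adjusted p-values of 0.0419 and 0.0272 at a fold change under 2, which reached 0.182 and 0.132 over the alternatives. The 9 summed to 142.5, 135.8 and 137.5 FPKM in the CL rats and to 318, 309.1 and 207.4 FPKM in the FL rats. FL2 was the highest rat on this sum, but by gene it was the highest FL rat only in Clec4f and Marco, and FL5 was the highest in 6 of the 9. FL12 was the lowest FL rat in 8 of the 9, where FL2 was the lowest in most replication genes. Clec4f, the marker of Kupffer cells, was the most abundant, at 49.90, 43.18 and 48.37 FPKM in the CL rats and 66.59, 57.44 and 26.27 FPKM in the FL rats.

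Of 9 lymphocyte markers tested, Cd2 and Cd4 were called higher (log2 fold changes 1.39 and 1.25), Cd4 in every alternative. The call of Cd2 (adjusted p = 0.0233, 0.0225 to 0.198 over the alternatives) was lost at a pseudocount of 1, after both scalings and without CL5, CL6 or FL5, and Cd79a was called without FL12 only. The list of 11 summed to 12.4, 10.5 and 11.5 FPKM in the CL rats and 24.2, 31.4 and 24.6 FPKM in the FL rats, most of it Cd4. The sum is therefore mostly a reading of 1 gene, and which cells held Cd4 was not tested. All 9 tested had a positive log2 fold change, but Cd3e, Cd3d and Cd3g overlapped between groups (adjusted p = 0.44, 0.783 and 0.131 in limma). The log2 fold changes of Cd3e and Cd3d fell to -0.15 and -0.28 in an alternative. Of 5 endothelial markers, Vwf was called (1.05, adjusted p = 0.0256, 0.00442 to 0.0989 over the alternatives) and Stab2 had an adjusted p of 0.0143 (up to 0.0563) at a fold change under 2. The call of Vwf was lost at a pseudocount of 1, after both scalings, without trend and without CL5, CL6, CL7, FL5 or FL12. The sums of the endothelial markers were 61.3, 63.3 and 55.8 and then 78.52, 68.95 and 75.01 FPKM, with Kdr the most abundant gene. Of the 5, 4 had a positive log2 fold change and 1, Kdr, a negative one (-0.21, adjusted p = 0.354 in limma). Kdr was at 22.12, 22.01 and 21.02 FPKM in the CL rats and at 23.44, 17.72 and 15.87 FPKM in the FL rats. Of 5 cholangiocyte markers 0 were called in limma and 1, Cftr, had an unadjusted p under 0.05 and was called without FL2, though its CL mean of 0.0867 FPKM was under the minimum, which it passed through its FL values. The sums of these markers were 5.38, 7.75 and 5.58 FPKM in the CL rats and 5.38, 8.06 and 11.3 FPKM in the FL rats, most of it Epcam. The largest log2 fold changes of that list were 1.46, 1.08, -0.82 and 0.33 for Cftr, Sox9, Krt7 and Epcam. Of 9 hepatocyte markers 0 were called in limma and 1, Apoa1, had an unadjusted p under 0.05, with log2 fold changes of 0.73, -0.63, -0.38 and 0.31 for Apoa1, Ttr, Alb and Tf, of which that of Alb turned to 0.49 after quantile normalization. Every FL rat lay below every CL rat in 3 of the 9 (Alb, Ttr and Hnf4a), where 4.78% of all genes tested did. Every FL rat lay above every CL rat in 2 (Apoa1 and Tf), where 35.7% of all genes tested did. Alb had an SE of 0.98 in limma with a trend in the prior, although its means were 32272 ± 1010 and 24803 ± 572 FPKM (SD, n = 3). The adjusted p of Apoa1 was 0.1 in limma (0.0203 to 0.306 over the alternatives). It was under 0.05 at a mean of at least 1 FPKM, without trend, with a robust prior and without FL2, at a fold change under 2. The sums of the 9 hepatocyte markers were 54389, 51690 and 52522 FPKM in the CL rats and 49766, 45961 and 44618 FPKM in the FL rats, most of it Alb. No marker of these lists was at 0 in all 6 rats. The part of these cell types in the differences of the replication genes was not tested.

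The genes are spread over 16 chromosomes, with 5 members each on chromosomes 1, 3, 9, 12 and 19. Chromosome 19 (Mcm5, Gins2, Gins3, Cdt1 and Orc6) holds 11.9% of the members and 2.89% of the genes tested, and chromosome 12 (Mcm7, Pole, Rfc2, Rfc3 and Rfc5) holds 11.9% and 3.4%. Called members were Mcm5 and Cdt1 on chromosome 19, Mcm3, Tyms and Uhrf1 on chromosome 9, Mcm2 on chromosome 4, Mcm6 on chromosome 13 and Gmnn on chromosome 17. On each of chromosomes 1, 3 and 12, 0 of the 5 members were called, and no test by position was run.

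Promoters were searched because many replication genes are known E2F targets. RefSeq promoter windows of the rat build GRCr8 (250 bases before and 50 after the start of a transcript) were matched for 36 of the 42 members, and Mcm4, Rrm2, Gins4, Cdc6, Orc1 and E2f1 had no entry. The E2F motifs searched were TTTGGCGC, TTTCCCGC, TTTGCCGC and TTTCGCGC on both strands, where matches may overlap. They were present in 2.14% of all 33469 windows, in 3.47% of 13016 windows of protein-coding genes in the table, and in 17 of the 39 windows of members (43.6%). By gene, 17 of the 36 members held a match (47.2%), which were 8 of the 8 called members and 9 of the 28 others (32.1%). CCAAT on either strand was present in 37.5% of all windows and in 61.5% of the windows of members. By gene, it was present in 39.6% of all genes with a window and in 22 of the 36 members (61.1%), with 5 of the 8 called and 17 of the 28 others. The members were chosen for their known part in replication, many as textbook E2F targets, so the shares are a description, and binding was not measured here.

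The stretches of 30 bases below hold as many bases of E2F motifs as fit, and those nearest the start where several do, in each of the 8 called members, 5′ to 3′ in the direction of transcription, with E2F motifs in capitals. In Mcm2, Mcm5 and Mcm6 a pair of motifs on opposite strands overlaps, so that the capitals run over both. The stretch of Mcm2 lies at chr4:122918088-122918117 (minus strand), that of Mcm3 at chr9:30733725-30733754 (minus), that of Mcm5 at chr19:13488591-13488620 (plus) and that of Mcm6 at chr13:42404471-42404500 (minus). Those of Tyms, Cdt1, Gmnn and Uhrf1 lie at chr9:120776102-120776131 (minus), chr19:67529245-67529274 (plus), chr17:40729854-40729883 (plus) and chr9:1223076-1223105 (plus).
Mcm2: tgacccggtTTTCGCGCGAAAacccgtggc
Mcm3: tgGCGGGAAAacttgggaagtTTTCGCGCc
Mcm5: gctcagaagTTTCGCGCCAAAacgtcccgc
Mcm6: gcgtctgctTTTGGCGCGAAAttagcgtgt
Tyms: aaggtgcgggtTTTGGCGCcgactacactg
Cdt1: ccgcgaaaattGCGCGAAAtccgcgggaag
Gmnn: tctgcaggttcgggtcgtTTTGGCGCggtt
Uhrf1: cccgagtcgggTTTCGCGCgccctggcgtc
Positions relative to the start differed between the genes. Counted from the start, with bases before it negative, the capitals of Mcm2 begin at -14, those of Tyms at -37, those of Uhrf1 at -99, those of Mcm6 at -139 and those of Mcm5 at -213. Those of Mcm3 span the start, and those of Cdt1 and Gmnn lie after it. Outside the stretches shown, Mcm5 held a further match that begins at -8, Cdt1 one at 33 and Uhrf1 one at -193. Members that were not called also held matches, among them Mcm7, whose level did not differ between the groups beyond the spread, Gins1, Pola1, Pole, Lig1, Rfc3 and Rpa2.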

How the data were processed

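The authors deposited 1 table of FPKM values (fragments scaled to transcript length and library depth), which was used as given. The submitters' processing notes name TopHat2 for alignment and the build GRCh38, a name of a human build, while the gene identifiers of the table are Ensembl rat. The paper's methods name the FASTX-Toolkit for the reads. The strand of counting is not given, so reads of genes that overlap on both strands could not be told apart. The table has 2 further value columns that were not used.

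Values were taken as log2(FPKM + 0.1) for 14864 genes whose mean reached 0.1 FPKM. Groups were compared with limma 3.58.1 (R 4.3.3, moderated t-tests with a trend in the prior) and Benjamini-Hochberg adjustment over all genes tested. A gene was called at a fold change of 2 or more with an adjusted p under 0.05. Ratios within a rat were compared by exact permutation. Figures were drawn with matplotlib 3.10.9, and scipy 1.17.1, pandas 2.3.3 and numpy 2.4.6 served for the tables under Python 3.11.15. Fold changes on this scale understate low genes.

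The members and the lists were chosen with earlier results of these data known. From each list besides the members, the 4 tested genes with the largest absolute log2 fold change could be named, and genes with an adjusted p under 0.05 outside those 4 were named where there were 5 or fewer, a choice made after seeing the values. Genes called only in an alternative or without 1 rat were also named after seeing the values, as were Hnf4a, E2f5, Cd3e, Cd3d and Cd3g. Dnmt1, Tk2 and the most abundant gene of a list were named for the ratios and sums.

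The results were computed again with each rat left out, with a pseudocount of 1 or 0.01, with median scaling over 9201 genes or quantile normalization, with no filter or a minimum mean of 1 FPKM, and with a robust prior or no trend in limma. Relative depth was read from the median of the lowest non-zero values of 114 U6 genes in each rat. Pairs of rats shared 0.866% to 2.54% identical values, so no library was a copy of another. The code was tested on simulated data. The planned search of protein sequences was not analysed here.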

Additional observations from a re-analysis of the deposited data

How the results depend on the processing

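Each alternative changed 1 setting. Members called higher (8 with all rats and the settings above): 1 at a pseudocount of 1, 8 at 0.01, 4 without a filter, 4 at a mean of at least 1 FPKM, 4 after median scaling, 1 after quantile normalization, 5 without trend, 8 with a robust prior, and 0 to 15 when a rat was left out. With an adjusted p under 0.05 (9): 5 without a filter, 5 at a mean of at least 1 FPKM, 4 after median scaling, 1 after quantile normalization and 0 to 21 when a rat was left out. Members without overlap (18): 9 at a mean of at least 1 FPKM, 8 after quantile normalization and 18 to 32 when a rat was left out. At a mean of at least 1 FPKM only 21 members were tested, and a left-out rat leaves fewer values to separate. The share of all genes without overlap is given for the main settings only (35.7%).

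All genes called higher in FL (1381): 462 at a pseudocount of 1, 1206 without a filter, 854 at a mean of at least 1 FPKM, 826 after median scaling, 453 after quantile normalization, 740 to 1831 when a rat was left out. All genes called lower in FL (139): 72 at a pseudocount of 1, 181 after median scaling, 231 after quantile normalization, 81 to 160 when a rat was left out. The median log2 fold change of the members (0.73) was 0.35 at a pseudocount of 1 and 0.15 after quantile normalization. The difference of the per-rat means (0.82) was 0.41 and 0.32 in these.

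Signs turned as follows, and the cause was not tested. Cd3e and Cd3d also turned in an alternative, with lowest log2 fold changes of -0.15 and -0.28. Pseudocount of 0.01: Rrm2 -0.40. Median scaling: Rrm2 -0.027, Prim1 -0.16, Rfc3 -0.10, Rfc5 -0.18, Tk2 -0.038. Quantile normalization: Mcm7 -0.10, Mcm8 -0.13, Rrm2 -0.43, Gins3 -0.024, Orc6 -0.081, Pola2 -0.16, Prim1 -0.27, Rfc3 -0.31, Rfc5 -0.43, Fen1 -0.086, Lig1 -0.11, E2f2 -0.14, Tk2 -0.23, Alb 0.49. With a rat left out: Mcm7 -0.034 to 0.43, Rrm2 -0.31 to 0.66, Prim1 -0.28 to 0.57, Rfc3 -0.057 to 0.45, Rfc5 -0.14 to 0.23, Rpa2 -0.45 to 0.33, Tk2 -0.067 to 0.34, Clec4f -0.28 to 0.39, and the log2 ratio of Gmnn to Cdt1 -0.47 to 0.016.

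No paired analysis was possible because the groups share only number 5. With 3 rats per group, whole tissue and 21 members under a mean of 1 FPKM, small differences could be missed, and cell numbers and RNA per cell cannot be told apart. Age was not given in the sources used here.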
